A study of Mus musculus with 6 samples.

Results

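Keratin-associated proteins are small proteins of the hair shaft, encoded in mouse by the Krtap genes. All genes whose symbol begins with Krtap were taken from the tables of the study, which gave 57 genes of the 26644 listed. They carry 27 subfamily numbers. Of the 57, 56 are annotated as protein-coding and 1, Krtap19-9a, as a processed pseudogene. The study sequenced RNA from mouse skin in wound healing, with 1 library at each of the early, middle and late stages after treatment with C-PC (C-phycocyanin, a blue pigment protein of the cyanobacterium Spirulina) and 1 library per stage from a negative control with treatment given as none. The 6 groups are therefore early control, early C-PC, middle control, middle C-PC, late control and late C-PC, each without a replicate. The labels give no strain, sex, age, number of animals, wound model, day of a stage or dose of C-PC. The tables hold read counts scaled per pair of libraries, and whole reads could be recovered from them. The libraries held between 15863637 and 18028674 reads on genes.

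The hair shaft is built from keratin filaments set in a matrix of keratin-associated proteins. The matrix proteins are rich in cysteine, whose disulfide bonds link them to hair keratins, or in glycine and tyrosine. By convention they are sorted into high sulfur, ultrahigh sulfur and high glycine-tyrosine classes by subfamily number. They are made late in the differentiation of the shaft, in keratinizing cells of cortex and cuticle of growing follicles, after the hair keratins. Interfollicular epidermis and other skin cells are not known to make them at a comparable level, and their RNAs are widely used as markers of the forming shaft. The genes are short, mostly without introns, and lie in clusters of related copies.

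The 57 genes lay on 5 chromosomes. Chromosome 16 held 24, chromosome 11 held 23, chromosome 7 held the 5 Krtap5 genes, chromosome 10 held 3 and chromosome 1 held the Krtap28 pair. Gene length ran from 166 to 1888 bases with a median of 879. All 57 had the same coordinates in GENCODE M21 on GRCm38 as in the tables. That annotation names 58 Krtap genes, and 1 of them was not analysed here.

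Promoters of 50 members could be matched by symbol in RefSeq on GRCm38.p6, as windows from 250 bases before to 50 bases after the annotated start. Krtap7-1, Krtap1-3, Krtap9-1, Krtap12-1, Krtap10-10, Krtap28-10 and Krtap19-9a were not matched. The stretch of 150 bases before the start is given below for 7 genes, 5′ to 3′ on the gene's own strand, with each TATAAA in capitals. Krtap8-1 and Krtap22-2 are shown because they stood highest per length among the matched genes in the late C-PC library. Krtap11-1 is shown because it had the most reads of the family in the middle control. Krtap3-1 and Krtap3-3 stood highest per length among the matched genes of chromosome 11 in late C-PC, and Krtap5-2 and Krtap5-3 lowest among all matched genes.
Krtap8-1: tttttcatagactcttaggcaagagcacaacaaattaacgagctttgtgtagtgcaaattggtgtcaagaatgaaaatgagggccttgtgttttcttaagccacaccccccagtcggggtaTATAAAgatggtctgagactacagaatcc
Krtap22-2: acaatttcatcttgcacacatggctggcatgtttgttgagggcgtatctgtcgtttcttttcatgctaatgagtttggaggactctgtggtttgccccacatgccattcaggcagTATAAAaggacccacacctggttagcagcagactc
Krtap11-1: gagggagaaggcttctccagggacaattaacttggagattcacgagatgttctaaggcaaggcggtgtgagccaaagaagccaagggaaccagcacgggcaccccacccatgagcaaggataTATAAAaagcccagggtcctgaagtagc
Krtap3-1: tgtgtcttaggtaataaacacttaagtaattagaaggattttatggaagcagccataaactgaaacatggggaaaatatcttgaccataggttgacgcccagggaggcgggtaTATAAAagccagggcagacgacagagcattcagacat
Krtap3-3: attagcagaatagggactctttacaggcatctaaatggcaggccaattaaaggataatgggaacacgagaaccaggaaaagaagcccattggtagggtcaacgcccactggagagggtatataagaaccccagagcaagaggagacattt
Krtap5-2: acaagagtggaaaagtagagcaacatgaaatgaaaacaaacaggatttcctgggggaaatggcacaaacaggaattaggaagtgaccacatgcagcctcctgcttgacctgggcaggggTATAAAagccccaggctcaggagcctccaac
Krtap5-3: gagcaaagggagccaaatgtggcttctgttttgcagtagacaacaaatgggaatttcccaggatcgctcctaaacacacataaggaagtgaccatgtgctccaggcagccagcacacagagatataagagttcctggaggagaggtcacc

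These windows lie at chr16:89487953-89488102 for Krtap8-1, chr16:89010760-89010909 for Krtap22-2, chr16:89571184-89571333 for Krtap11-1, chr11:99566631-99566780 for Krtap3-1, chr11:99550864-99551013 for Krtap3-3 and chr7:142176006-142176155 for Krtap5-2, all on the minus strand. The window of Krtap5-3 lies at chr7:142201214-142201363 on the plus strand. TATAAA is the core of the TATA box, which positions transcription at many genes that are switched on strongly in a single cell type. It began 29 bases before the start of Krtap8-1, 35 before that of Krtap22-2, 28 before Krtap11-1, 37 before Krtap3-1 and 31 before Krtap5-2. Those letters are not in the windows of Krtap3-3 and Krtap5-3.

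A TATAAA on either strand was found in 41 of the 50 member promoters (82%), against 13.6% of all 32851 promoters of the same length. On the gene's own strand and beginning 45 to 15 bases before the start, the motif was found in 32 members (64%) and in 2.25% of all promoters. These 32 began between 44 and 27 bases before the start, with a median of 31. Reads per kilobase of gene length in the late C-PC library, described below, ran from 17.7 to 66028 (median 4204) for the 32 genes with the motif in that place. For the 18 genes without it they ran from 5.45 to 36623 (median 3769). The levels with and without the exact letters in that place thus overlapped over nearly their whole ranges. Other spellings of the TATA box were not counted, so genes without the letters may still have one. The letters CTTTGAAGA, a form of the sequence bound by the hair follicle factor Lef1, were found on either strand in 4 of 50 members (8%) and in 0.490% of all promoters. The 4 genes were Krtap14, Krtap3-3, Krtap16-3 and Krtap24-1, and the 2 motifs share no position by their letters. A match in letters is a description and does not show that a factor was bound.

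**Figure D1:**
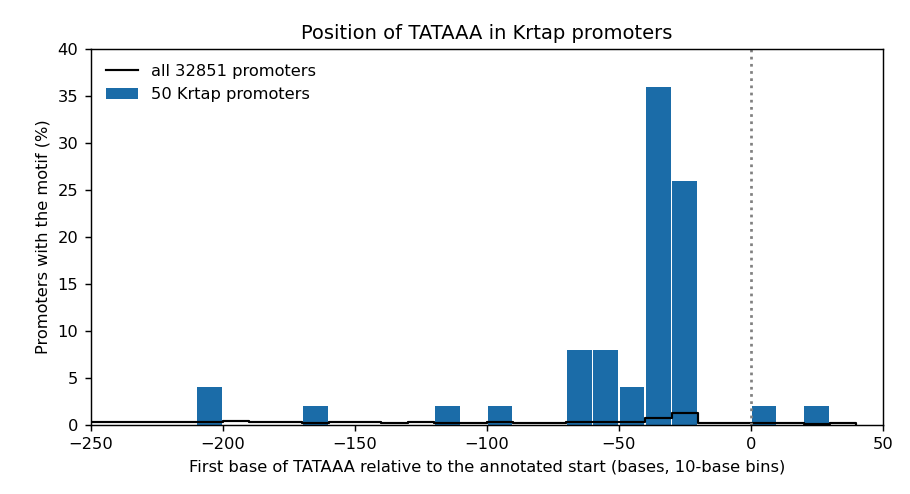
Share of promoters (percent) in which TATAAA begins in each bin of 10 bases, on the gene's own strand, against the distance in bases from the annotated start. Bars are the 50 Krtap promoters and the line is all 32851 promoters; the Krtap bars peak between 40 and 20 bases before the start, where 32 of 50 members have the motif within 45 to 15 bases.

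Reads of the family were almost confined to a single library. No Krtap gene was listed in the early table, for control or C-PC. In the middle stage 23 genes had 112 reads in all in the control and 0 in the C-PC library. At the late stage the control had 9 reads over 6 genes, and the C-PC library had 357313 reads over all 57. Every listed gene had at least 2 reads over its pair of libraries. If every gene with at least 2 reads was listed, which the sources do not state, an unlisted gene had at most 1 read. On that assumption the early pair could hold at most 57 reads of the family, and the 34 genes unlisted in the middle stage at most 34 more there. The late C-PC library stood apart from the other 5, among which the middle control had the most listed reads.

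As CPM, the usual scaling of reads to a common depth, the family summed to 20977 in late C-PC (95% exact interval 20909 to 21045) and to 0.556 in late control (0.254 to 1.06). On the authors' scaling of the pair, used for every fold within a stage and not equal to a ratio of CPM, late C-PC was 25799-fold higher than late control (95% interval 13590 to 56420). The middle control summed to 7.06 CPM (5.81 to 8.50), and on the authors' scaling it was at least 27.7-fold higher than middle C-PC, set against a floor of 3 reads over the 23 listed genes. The C-PC library was thus the higher of the pair at the late stage and the lower at the middle stage. Krtap reads made up 2.10% of the late C-PC library and 0.000706% of the middle control. As shares of reads per kilobase of gene length these were 8.10% and 0.00253%, since the genes are short. Intervals and floors cover counting error only. No difference here has a replicate check, and in bulk skin a change in the number of shaft-forming cells cannot be told apart from a change in RNA per cell.

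**Figure D2:**
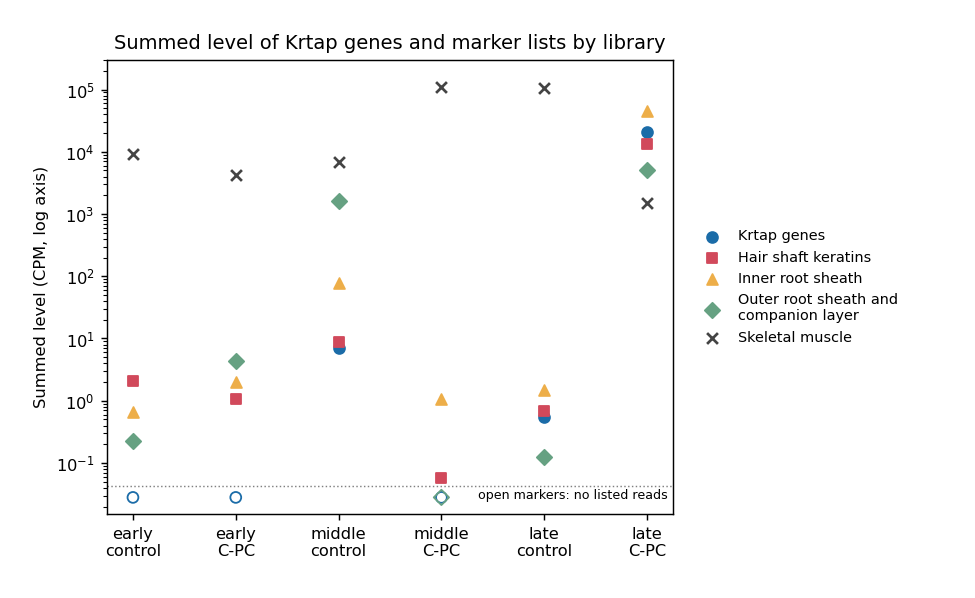
Summed CPM (log axis) of the 57 Krtap genes and of 4 marker lists in each of the 6 libraries, 1 point per list and library; open markers at the bottom stand for lists with no listed reads. Krtap genes reach 20977 CPM in late C-PC and 7.06 in middle control, and skeletal muscle markers are highest in middle C-PC and late control.

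The labelled tissue was checked against marker genes, and the libraries differed in more than the follicle. The basal keratinocyte keratin Krt14 had 0 reads in early control, 32 in early C-PC, 13548 in middle control, 0 in middle C-PC, 2 in late control and 8477 in late C-PC. Krt5, its partner, had 0, 23, 5421, 0, 0 and 25097 reads in the same order. These keratinocyte RNAs were therefore at or near 0 in early control, middle C-PC and late control and low in early C-PC, although all are labelled skin. The summed level of 6 skeletal muscle markers was 108982 CPM in middle C-PC and 104932 in late control, and between 1519 and 9045 CPM in the other 4. All 6 muscle markers were lower with C-PC late and higher with C-PC in the middle stage. Each of 4 fat markers moved as the muscle markers did, with summed levels of 3059 and 4527 CPM in middle C-PC and late control against 285 to 1682 in the others. The part of this tissue content in the Krtap differences was not tested.

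Other follicle genes were counted by the same rule as the family. Within a stage a gene was called apart where it had at least 10 reads in a library of the pair, at least a 2-fold ratio after a pseudocount of 2, and a 95% interval off equality. Over all genes compared, 26.3% were called higher with C-PC late and 28.1% lower in the middle stage. Most genes of these lists had few or no reads in the lower library and passed the minimum through the higher one, which fixes their direction. Of 16 hair shaft keratins, the filament partners of the Krtap proteins, 15 were listed late and 15 were higher with C-PC late, and of the 5 compared in the middle stage all 5 were lower. All 10 inner root sheath genes, which mold the growing shaft, were higher late, and 9 of 9 compared were lower in the middle. Outer root sheath and companion layer genes were 6 of 6 higher late and 6 of 6 lower in the middle. That list holds Krt14 and Krt5, the basal keratinocyte keratins given above, so it is not confined to the follicle. Of 8 genes for cross-linking and other shaft functions, 8 were higher late and 5 of the 7 compared were lower in the middle.

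Among 10 regulators of the shaft some had reads mainly in these 2 libraries and others in all 6. Hoxc13, a homeobox factor needed for hair shaft structure, had 16 reads in middle control, 0 in middle C-PC, 0 in late control and 3730 in late C-PC, and was not listed early. Foxn1, the factor mutated in nude mice, had 2 and 0 early, 11 and 0 in the middle and 0 and 3542 late, control before C-PC. Cux1 and Bmpr1a, which many cell types express, were in every library, at 126.9 and 90.5 CPM in early control, between 86.3 and 120.5 CPM in the next 4 and at 537 and 236 CPM in late C-PC. Of 10 regulators 9 were called higher late and 7 lower in the middle, where 26.3% and 28.1% of all genes compared were called so. Melanocyte genes, which serve pigment transfer into the shaft, were higher late for 5 of 5, with sums of 1482 CPM in late C-PC and 1.16 to 4.03 elsewhere. Of dermal papilla genes, marking the mesenchyme at the follicle base, 3 of the 4 compared were higher late and 2 of 4 were lower in the middle. The summed level of interfollicular epidermis markers differed from the shaft genes in order, with 980 CPM in middle control, 795 in late C-PC and at most 4.66 in the other 4. Krt1, Krt10, Flg and Krtdap were higher in middle control than in late C-PC. Ivl and Lor went the other way, at 8.57 and 62.2 CPM in middle control and 158.6 and 71.0 in late C-PC.

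The family stood lower against neighbouring follicle lists in the middle control than in late C-PC. Krtap reads per hair shaft keratin read were 0.800 in middle control (112 against 140 reads; 95% interval 0.618 to 1.03). In late C-PC the ratio was 1.59 (1.58 to 1.60; 357313 against 225053 reads). Against inner root sheath reads the ratios were 0.0920 (0.0751 to 0.112) and 0.459 (0.457 to 0.460). The intervals do not overlap in either case, and they compare 2 libraries and not the treatment.

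At the late stage 56 members were compared and 56 were called higher with C-PC, where 26.3% of the 17073 genes compared were called higher. The members passed the minimum of reads only through the late C-PC library, where they are high, so the count adds nothing to the read totals. Krtap5-3, with 9 reads, was not compared. Over all 57 members the median log2 ratio of deposited values plus 2 was 10.20, against 0.15 over all genes compared. In the authors' deposited table the log2 fold changes of all 57 members at this stage ran from 5.92 to 17.96, and each side is 1 library.

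The members differed widely in level within late C-PC. Reads per gene ran from 9 to 49232 with a median of 2908, and 39 genes had at least 1000. The top 4 held 42.2% of the family's reads and the top 10 held 63.6%. Per kilobase, the range from Krtap5-3 at 5.45 to Krtap7-1 at 79279 spanned 14552-fold. The top 4 all lie on chromosome 16, and 3 members had under 100 reads.

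**Figure D3:**
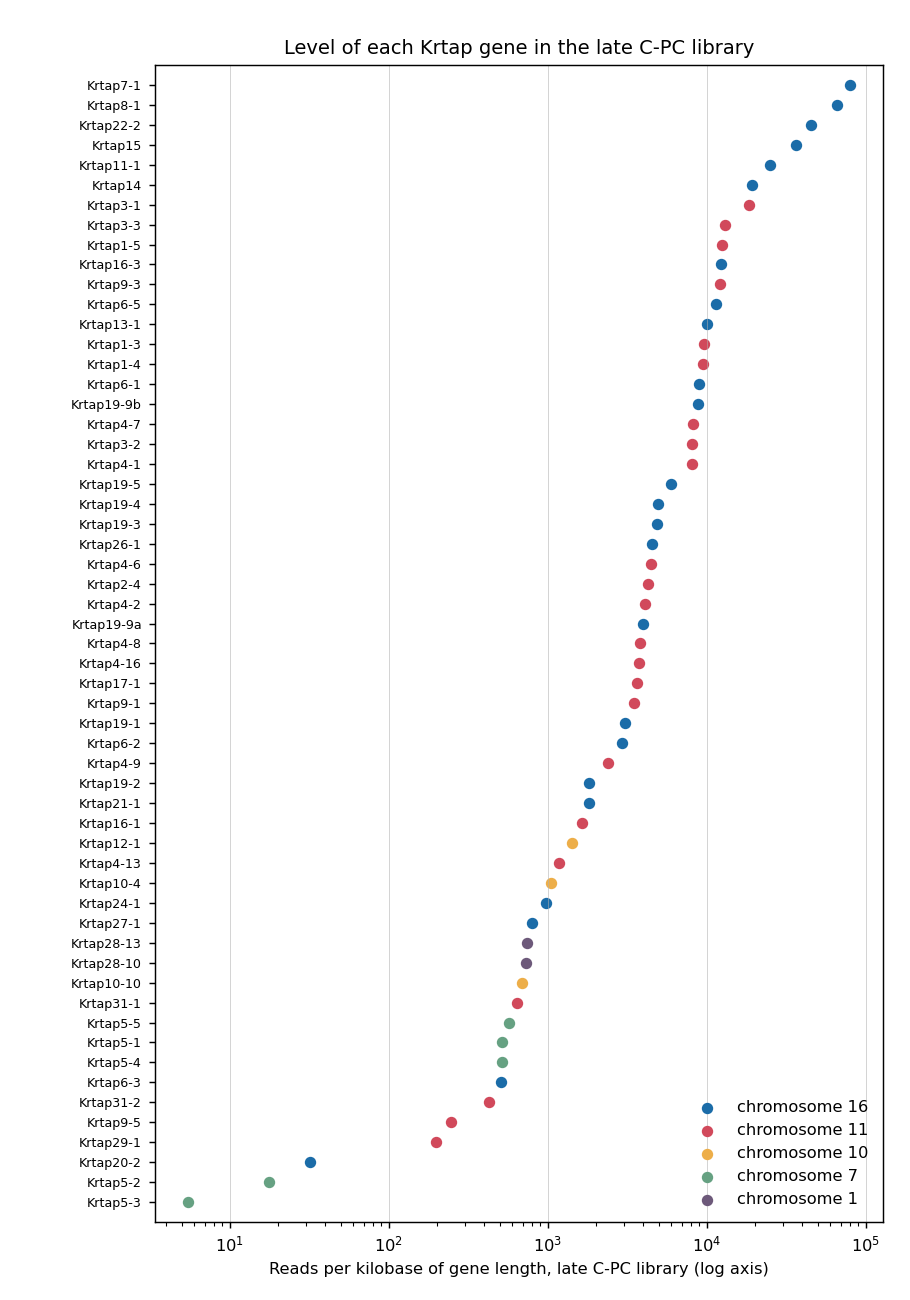
Reads per kilobase of gene length (log axis) of each of the 57 Krtap genes in the late C-PC library, 1 point per gene, ordered by level and coloured by chromosome. The 6 highest genes lie on chromosome 16, and Krtap5-3 and Krtap5-2 on chromosome 7 are lowest at 5.45 and 17.7.

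High glycine-tyrosine members were 16 and made 37.5% of the family's late C-PC reads, or 49.96% per kilobase. These proteins fill the space between filaments of the cortex. Krtap7-1 at chr16:89507703-89508323 had 7 reads in middle control, 0 in middle C-PC, 1 in late control and 49232 in late C-PC. It was highest of the family both by reads and per kilobase, and its late ratio was 31992-fold (95% interval 5742 to 1263640). Krtap8-1 at chr16:89487379-89487952 had 3, 0, 0 and 37900 reads in the same order, at least 8209-fold higher late with C-PC against a floor of 3 reads in the library. Krtap7-1 and Krtap8-1 lie in the same cluster on the minus strand.

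Krtap22-2 was unlisted in the middle stage, had 4 reads in late control and 16427 in late C-PC, where it was the third per kilobase at 45005. Its late ratio was 2669-fold (1042 to 9796), and it was the member with the most late control reads. The Krtap6 genes with the most reads, Krtap6-5 and Krtap6-1, had 6812 and 5346 late C-PC reads, and Krtap6-1 also had 2 in middle control. Krtap6-2 had 2319 and Krtap6-3 265. The 7 Krtap19 genes lay close together, between 1832 and 8775 reads per kilobase, led by Krtap19-9b (4054 reads) and Krtap19-5 (2908), and only Krtap19-4 had a read in late control. Krtap21-1 had 1189 reads. Krtap20-2 had 17 reads, or 31.8 per kilobase, and was the lowest of its class. The class thus held both the top of the family and a gene near its bottom.

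High sulfur members were 19 and made 47.0% of the reads, or 38.1% per kilobase, with a median of 9528 reads per kilobase, above the medians of 4897 for the glycine-tyrosine and 3481 for the ultrahigh sulfur class. These proteins cross-link the cortex. Krtap15 at chr16:88820215-88829844 had 2 reads in middle control, 0 in middle C-PC, 0 in late control and 38527 in late C-PC, at least 8345-fold higher late. Krtap11-1 at chr16:89570176-89571183 had 18, 0, 1 and 25162 reads in that order, with a late ratio of 16351-fold (2934 to 645845). Krtap14 was unlisted in the middle stage and had 0 and 17175 reads late. All 3 were lower or unlisted in every library but late C-PC, and Krtap11-1 was the member with the most reads in a second library.

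On chromosome 11 the high sulfur genes of subfamilies 1 and 3 were even in level. Krtap1-5 had 7, 0, 0 and 12987 reads in middle control, middle C-PC, late control and late C-PC, and Krtap1-3 had 7, 0, 0 and 8463. Krtap1-4 had 5, 0, 0 and 5650. The 3 Krtap1 genes lay between 9528 and 12476 reads per kilobase in late C-PC. Krtap3-1 was unlisted in the middle stage and had 0 and 11220 reads late. Krtap3-3 had 2, 0, 1 and 9544 reads, and Krtap3-2 had 10, 0, 0 and 8350. The 3 Krtap3 genes lay between 8099 and 18576 reads per kilobase, and Krtap2-4, the only member of its number, was at 4295.

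The remaining high sulfur numbers were mostly lower. Krtap13-1 had 7576 reads, Krtap16-3 7376, Krtap26-1 4437, Krtap16-1 3107, Krtap24-1 1536 and Krtap27-1 516 in late C-PC. On chromosome 10, Krtap10-4 had 1 read in late control and 1030 in late C-PC, Krtap10-10 had 6 in middle control and 904, and Krtap12-1 had 933. In human hair the KRTAP10 and KRTAP12 proteins are known from the cuticle, the outer cell layer of the shaft. The 3 genes on chromosome 10 were at 692 to 1422 reads per kilobase, below all 8 high sulfur genes on chromosome 11.

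Ultrahigh sulfur members were 17 and made 14.8% of reads, or 11.4% per kilobase. Of the 8 Krtap4 genes, Krtap4-1 had 5, 0, 0 and 8208 reads in middle control, middle C-PC, late control and late C-PC, and Krtap4-7 had 4, 0, 0 and 8084. The other 6 Krtap4 genes had from 960 (Krtap4-13) to 4091 (Krtap4-6) reads in late C-PC, and 4 of them were listed in the middle control with 2 to 6 reads. Krtap9-3 (9203 reads), Krtap9-1 (3634) and Krtap9-5 (265) were not listed in the middle stage. Krtap17-1 had 7 reads in middle control and 2779 in late C-PC. The 5 Krtap5 genes, whose human counterparts are known from the cuticle, ran from 5.45 to 573 reads per kilobase, and Krtap5-2 and Krtap5-3 were the lowest of the family. Krtap5-5 had 675 reads, Krtap5-4 536, Krtap5-1 393, Krtap5-2 26 and Krtap5-3 9, all with 0 in late control, and the late fold of Krtap5-3 was at least 1.95. Chromosome 7 as a whole gave 0.459% of the family's reads.

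The numbers 28, 29 and 31 were not assigned a class. Krtap28-13 had 731 late C-PC reads and Krtap28-10 had 697, and each had 3 in middle control. Krtap31-1 had 626, Krtap31-2 398 and Krtap29-1 204, and none of these was listed in the middle stage. These 5 genes lay between 198 and 737 reads per kilobase and together gave 0.743% of the reads. For the 51 members with 0 reads in late control the lower bound of the late fold ran from 1.95 to 8345 with a median of 602.

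Codons of the 56 protein-coding members, counted in GENCODE M21 transcripts, showed how far the class names describe the proteins. Cysteine codons ran from 0% in Krtap19-9b to 42.9% in Krtap28-10. Glycine and tyrosine codons together ran from 0.922% in Krtap10-10 to 69.2% in Krtap6-1. The coding members of the high glycine-tyrosine class had at most 16.7% cysteine and from 29.9% (Krtap7-1) upward in glycine and tyrosine. Krtap7-1 and Krtap8-1 (47.5%) were the lowest of that class in glycine and tyrosine codons and the highest in reads. Ultrahigh sulfur members had 27.2% to 41.5% cysteine codons.

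Some compositions crossed the class lines. Krtap16-3 is high sulfur by number, but 59.3% of its codons were for glycine or tyrosine and 8.14% for cysteine. Counting it with the glycine-tyrosine class would raise that class from 37.5% to 39.5% of reads. The 7 other high sulfur genes on chromosome 16 had 4% to 12.02% cysteine, against 20.1% to 30.6% for those on chromosome 11, so the class name covers 2 compositions. Krtap28-10 and Krtap28-13 were rich in both kinds, with 42.9% and 42.8% cysteine and 38.7% and 42.0% glycine and tyrosine. Krtap17-1 (35.8% and 34.9%), Krtap5-3 (35.1% and 39.3%) and Krtap5-2 (34.6% and 36.0%), all ultrahigh sulfur, were also rich in both.

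**Figure D4:**
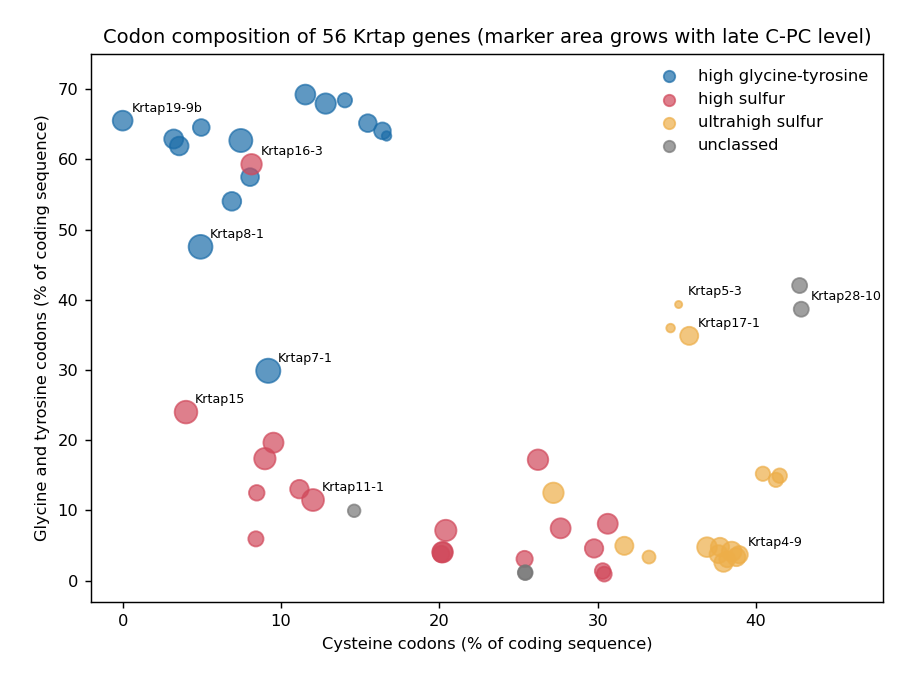
Glycine and tyrosine codons against cysteine codons (percent of the coding sequence) for 56 protein-coding Krtap genes, 1 point per gene, coloured by class, with marker area growing with reads per kilobase in late C-PC. Krtap16-3 lies among the glycine-tyrosine genes, and Krtap28-10 and Krtap17-1 are high on both axes.

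At the early stage 0 members were compared, where 2.92% of all genes compared were called higher with C-PC and 6.85% lower. In the middle stage the direction was the opposite of the late stage for every listed member. All 23 had reads in the control and 0 in C-PC, and the median log2 ratio of deposited values plus 2 was -1.44, against -0.13 over all genes compared. With 0 C-PC reads the 23 were listed through the control alone, so their common direction adds nothing to the reads. Only Krtap11-1 (18 reads) and Krtap3-2 (10 reads) reached the minimum of 10 reads. Both were called lower with C-PC. They passed that minimum only through the control, so the direction was fixed by the filter and the 2 calls add nothing to the reads; 28.1% of the 17076 genes compared were called lower. Against the floor of 3 reads Krtap11-1 was at least 4.46-fold and Krtap3-2 at least 2.48-fold higher in the control. In the authors' deposited table the log2 fold changes of the 23 ran from -6.98 to -3.90.

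The makeup of the family differed between its 2 libraries with reads. Chromosome 16 gave 66.1% of Krtap reads in late C-PC and 32.1% in middle control (95% exact interval 23.6 to 41.6). Chromosome 11 gave 32.2% and 57.1% (47.4 to 66.5). If every unlisted member of the middle control had held 1 read, its chromosome 16 share could reach 41.1% and its chromosome 11 share could fall to 47.1%. Chromosome 11 thus held the larger share in the middle control and chromosome 16 in late C-PC. Chromosome 10 gave 0.802% and 5.36% (1.99 to 11.3), and chromosome 1 gave 0.400% and 5.36%.

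By class the largest gap was that of the glycine-tyrosine genes, with 37.5% in late C-PC and 10.7% in middle control (5.66 to 17.97). With 1 read assumed for each unlisted gene of the class, the middle control share would be 20%. Ultrahigh sulfur genes gave 14.8% and 27.7% (19.6 to 36.9). High sulfur genes gave 47.0% and 56.2% (46.6 to 65.6), so that 47.0% lay inside the interval near its lower edge. By subfamily, Krtap15 gave 10.8% and 1.79% (0.217 to 6.30), Krtap8 gave 10.6% and 2.68% (0.556 to 7.63) and Krtap7 gave 13.8% and 6.25% (2.55 to 12.5). Krtap4 gave 9.85% and 21.4% (14.2 to 30.2), Krtap1 7.58% and 16.96% (10.5 to 25.2) and Krtap11 7.04% and 16.1% (9.81 to 24.2). Krtap7, Krtap8 and Krtap15 thus had the larger share in late C-PC, and Krtap1, Krtap4 and Krtap11 in the middle control.

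**Figure D5:**
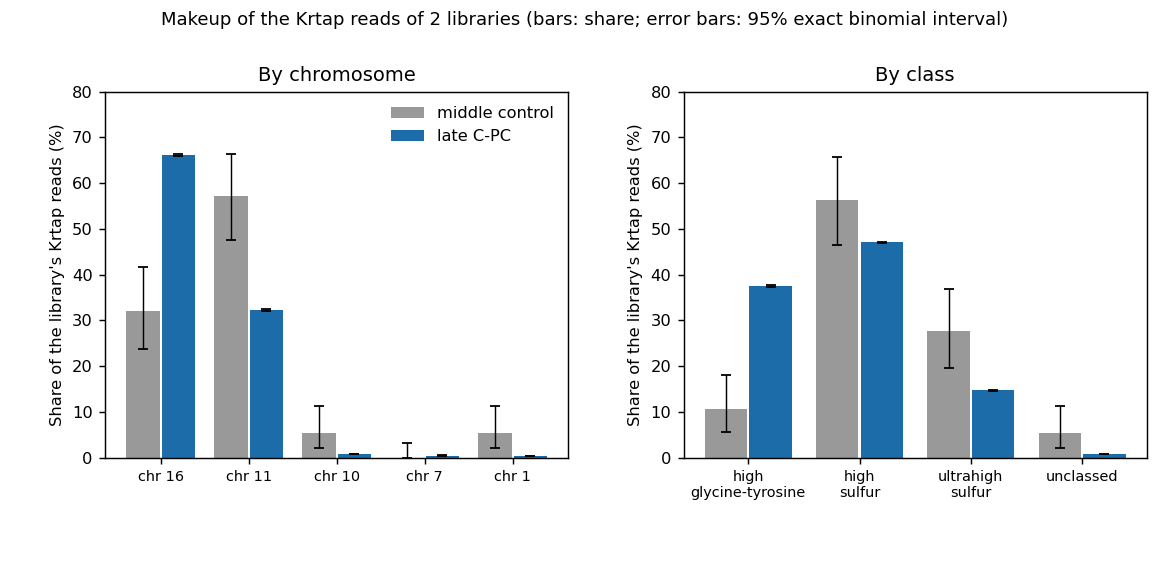
Share of each library's Krtap reads (percent) by chromosome and by class, for the middle control (112 reads) and the late C-PC library (357313 reads); bars are shares and error bars are exact 95% binomial intervals. Chromosome 16 is at 32.1% and 66.1%, and the high glycine-tyrosine class at 10.7% and 37.5%.

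Reads of single genes were set against their late C-PC shares. At the shares of late C-PC, the 112 middle control reads would have held 15.4 of Krtap7-1, 12.1 of Krtap15, 11.9 of Krtap8-1 and 5.38 of Krtap14. Observed were 7, 2 and 3, with Krtap14 unlisted. Krtap11-1 had 18 reads against 7.89 at those shares, Krtap17-1 had 7 against 0.871 and Krtap10-10 had 6 against 0.283. Gm2696, a gene that overlaps Krtap10-10, had 4 middle control reads, and the split of reads between them was not tested. Over the 23 listed genes, Spearman's rho between the reads of the 2 libraries was 0.28, a description over genes of 2 libraries with few reads on 1 side. Genes listed in the middle stage had a late C-PC median of 5346 reads, and those not listed had 1183.5.

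Reads of near-identical genes can be shared. Of the 57 members, 34 had no stretch of 100 bases in common with a transcript of another gene, 23 had some, and 9 had it for more than 25% of such stretches. The largest were Krtap4-13 with 62.8% (shared with Gm11554), Krtap10-10 with 38.9% (Gm2696), Krtap3-3 with 36.7% and Krtap2-4 with 35.9% (29.5% with Gm11562). Gm2696 overlaps Krtap10-10 in position, by 567 exonic bases. Krtap3-2 and Krtap3-3 shared with each other, as did Krtap31-1 and Krtap31-2. Levels of these genes are uncertain to that extent. Krtap7-1, the highest member, shared none, and Krtap15 shared 10.1% with the overlapping gene 4930553J12Rik, which had 3 reads in late C-PC.

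Across stages, the C-PC difference was fitted with limma on log2 values plus 2 with stage as a block, and no gene of 18619 was called at an adjusted p of 0.05 (0.0%). At an unadjusted p under 0.05 limma had 167 genes, none of them a Krtap gene. For the 56 members tested, with all unlisted values set to 0 reads, including both early libraries, the log2 difference ran from 0.99 to 4.34 with standard errors up to 3.43, and the limma adjusted p was 1.00. The fit has 2 residual degrees of freedom, and its error is the change of the C-PC difference from stage to stage. edgeR on recovered reads called none, with 31 members, all higher, and 226 of 18619 genes at an unadjusted p under 0.05. Nearly all members passed the filter on low reads only through late C-PC, which fixes their direction. DESeq2 called 40 of 16453 genes, of which 1 was a member (54 tested), Krtap14 (adjusted p 0.000116558). The listed reads of Krtap14 were all in late C-PC, so this call rests on 1 library. Without the late stage the limma differences of the members ran from -1.56 to 0. Most members tested were unlisted in the early and middle stages and set to 0 reads there, which put their median at 0 by construction.

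Late against early, limma with treatment as covariate again called no gene (0.0%), with 1181 genes and no member at an unadjusted p under 0.05. The log2 differences of the 56 members ran from 1.52 to 7.56 with standard errors of 1.27 to 4.24, and limma adjusted p from 0.790 to 0.830. edgeR called none, with 31 members and 1052 of 18619 genes at an unadjusted p under 0.05. Here too nearly all members passed the filter on low reads only through late C-PC. In the C-PC libraries the family went from no listed reads early to 357313 late, and in the controls from none listed to 9.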

How the data were processed

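RNA from 6 mouse skin samples was sequenced, 1 library per treatment and stage. The authors deposited 1 table per stage, holding for each listed gene a signal per library. From the values this signal is the read count, scaled so that both libraries of a pair have a common size. Per the file headers the tables also hold a log2 fold change, a p-value, an adjusted p-value and the gene length. The aligner is not given in the sources used here, nor are counting tool and annotation. Only hg38 is named by the submitters' processing notes, while identifiers and coordinates are of mouse.

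Each deposited value was a whole multiple of 1 step per column, so reads were recovered (100% within 0.1 read). Depth is 15863637 to 18028674 reads on genes. Per the labels' protocols the kit (NEBNext Ultra RNA) does not mark strand, so overlapping genes cannot be separated. The tables were scaled separately, so levels across stages rest on recovered reads.

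Within a stage the log2 ratio of values plus 2 was given with a 95% conditional binomial interval. Shares have exact Clopper-Pearson intervals, and folds against 0 reads use 3 reads. Over stages, limma 3.58.1 was used (R 4.3.3, trend and robust settings), with Benjamini-Hochberg adjustment over all genes tested. The C-PC fit used log2 of the deposited values plus 2, as scaled per pair by the authors. The late against early fit used log2 CPM of recovered reads, scaled by TMM over the 6 libraries. edgeR 4.0.16 and DESeq2 1.42.0 on recovered reads are alternatives. Only limma on log2 CPM was run on simulated counts, and its outcome is not given here. The C-PC fit on deposited values was not run on them. Python 3.11.15 was used for the rest. No other value columns were left out.

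Members, lists and tests were chosen with earlier results of these data known. Named were up to 2 genes per subfamily by reads, those with at least 10 reads in another library, the 3 lowest and near-identical pairs; members named beyond that were chosen after their values were seen. Pairs were judged by shared transcript windows of 100 bases.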

Additional observations from a re-analysis of the deposited data

Results flagged for a closer look

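All 23 Krtap genes listed at both the middle and the late stage had opposite directions in the 2 stages. They had fewer reads with C-PC than in the control in the middle stage and more with C-PC late. In the middle stage they had 0 C-PC reads and were listed through the control alone. Late they had at most 1 control read each and were listed through C-PC. Their directions therefore add nothing to the read totals. The difference between stages was not tested, since each side is 1 library. In the middle stage the 95% interval was off equality for 6 of the 23, each through its control reads against 0 C-PC reads. The share of all genes off equality without a minimum of reads was not counted, so the 6 cannot be set against it. Markers of skeletal muscle moved the other way in both stages, from 6748 CPM in control to 108982 CPM with C-PC in the middle and from 104932 CPM to 1519 CPM late, and their part in the Krtap values was not tested.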

How the results depend on the processing

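Of 28 alternatives for the main counts and medians, 22 had an equal count, a count within 1.5 times, or a median within its counting interval. Many of the 22 are limma and edgeR counts of 0 members against 0, which have no direction. The main fits called no gene at all, so these say little about stability. The interval of the median has no lower bound in the middle stage and no upper bound late, since most members had 0 reads in 1 library. The median late log2 ratio was 10.20 with a pseudocount of 2, 12.09 with 0.5 and 8.88 with 5. The median middle ratio was -1.44, -2.98 and -0.75 in the same order. It became 0.019 when 0 reads were set to the floor of 3. For genes with 2 or 3 control reads that floor puts the scaled C-PC value above the control by construction. Krtap genes called lower in the middle stage were 2 in the main count, 6 with no minimum of reads and 0 with a minimum of 50 reads. For calls within a stage, the share over all genes was found for the main count only. Over the stages DESeq2 called 1 member, Krtap14, whose listed reads were all in late C-PC, where limma and edgeR called none. Leaving out each stage in turn called 0 members. Counting only members with no shared stretch of 100 bases, an alternative chosen after seeing the data, left 33 called late in place of 56, because fewer members were counted. Other late counts ran from 54 to 57. Per kilobase, 9 of 27 subfamilies took a larger share of late C-PC and 18 a smaller share. Shares rest on only 112 family reads in the middle control, and late folds on 9 in the late control. With 1 library per group, no spread between samples is known. Replicate numbers gave no pairing, because the groups share only the number 1. The stage block of the C-PC fit pairs the libraries of a stage. Without that block, and with scaling by total reads in place of the authors' scaling, limma also called 0 members.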

Other observations

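Genes outside the Krtap symbols that shared a stretch of 100 bases with a member were also listed late. There were 38 such genes, among them predicted genes of the Gm kind, and their late C-PC reads ran from 3 to 17048 with a median of 616.5 and a sum of 73276. The highest was Gm10229, which shared a part with Krtap6-1, with 17048 reads in late C-PC and 3 in middle control. Of the 38, 13 had at least 1000 late C-PC reads and 11 were listed in the middle stage, with 41 control reads. None had a read in late control, and the 11 listed in the middle stage had 0 in middle C-PC. The Krtap total given in the report does not hold these genes.

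The pseudogene Krtap19-9a had 656 reads in late C-PC over 166 bases, or 3952 per kilobase, between the coding Krtap19 members, and shared no stretch of 100 bases with another transcript. Of the 9 Krtap reads in late control, 4 were of Krtap22-2, which gave 4.597% of the family's reads in late C-PC.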
